A study of Mus musculus with 10 samples.

Results

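The MAP kinase phosphatases were followed through the hippocampus of mice after pilocarpine-induced status epilepticus (PILO-SE). The genes were chosen by their symbols: *Dusp1*, *Dusp3*, *Dusp4*, *Dusp5*, *Dusp6*, *Dusp7*, *Dusp8*, *Dusp10*, *Dusp14* and *Dusp16*, which are 10 of the 15900 genes in the expression table and fill 11 of its lines, because the symbol *Dusp8* is listed under a pair of identifiers. Whole hippocampi of male ICR (CD-1) mice, aged 9 to 10 weeks when SE was induced, were examined with cap analysis of gene expression (CAGE), in which each sequenced tag marks the capped 5′ end of a transcript. There were 5 groups of 2 mice: pre-SE mice, which the labels call untreated and for which the methods give saline in place of PILO, SE 6 h and SE 2 days mice, sampled at 6 h and 2 days after PILO-SE, and SE + LEV 6 h and SE + LEV 2 days mice, which also received the anti-epileptic drug levetiracetam (LEV) by mouth. PILO was given after methyl scopolamine, and SE was ended with diazepam (DZP) in mice with and without LEV, so that all 4 groups sampled after SE share these agents. The first LEV dose followed DZP, and LEV mice had received 1 dose by 6 h and 5 doses by 2 days.

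MAP kinases (ERK, JNK and p38) carry signals from receptors and synaptic activity to the nucleus and are switched on by phosphorylation of a threonine and a tyrosine. MAP kinase phosphatases, a branch of the dual-specificity phosphatases (DUSP), remove both phosphates, and transcription of several of them is itself induced by MAP kinase activity, which makes them a negative feedback. They are commonly grouped into inducible nuclear enzymes (*Dusp1*, *Dusp4*, *Dusp5*), cytoplasmic enzymes that prefer ERK (*Dusp6*, *Dusp7*), enzymes that prefer JNK and p38 (*Dusp8*, *Dusp10*, *Dusp16*) and small atypical enzymes without the MAP kinase-binding domain (*Dusp3*, *Dusp14*).

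At 6 h after SE, the expression of *Dusp1*, *Dusp4*, *Dusp5*, *Dusp6*, *Dusp14* and *Dusp16* was increased, by 2.92-fold (*Dusp14*) to 7.66-fold (*Dusp1*), while *Dusp3*, *Dusp7*, *Dusp8* and *Dusp10* did not pass the test. In 17 alternative runs of the test, given at the end, *Dusp1* and *Dusp5* always passed at 6 h. *Dusp4* passed in 12 of them, *Dusp16* in 9, and *Dusp6* and *Dusp14* in 8 each. At 2 days the increase of *Dusp5*, 3.51-fold, passed the test. With LEV, 10 of 11 estimates at 6 h and 9 of 11 at 2 days lay below those of SE mice, against 44.2% and 44.6% of all genes. None of the differences of these 11 lines passed the adjusted threshold at either time. Summed over the 11 lines, the CPM values (tags scaled to the same total in every library) were 390 and 392.4 before SE, 831.8 and 884.3 at SE 6 h and 583.5 and 452.5 at SE + LEV 6 h. At 2 days the sums were 508.6 and 711.3 without LEV and 395 and 343.3 with LEV.

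The depth estimated from the steps of the CPM values was 10540698 to 51710968 tags per library, and the detection limit, set at 3 tags, came to 0.058 to 0.285 CPM. Every value of the phosphatases was above it, the lowest being 0.62 CPM. Since CAGE counts starts, CPM values do not depend on transcript length and are compared between genes on that scale. Differences are given as logFC, the difference of log2(CPM + 0.1) with its standard error after ±, from 1 limma model of all 10 libraries, and genes with a Benjamini-Hochberg adjusted p of at most 0.05 over 15851 genes were called. All 11 lines passed the filter on low values. With 2 mice against 2, an exact two-sided permutation test cannot go below p = 0.333, which is why a model that shares its estimate of spread over genes was used, and nothing in the labels ties mice of different groups to each other.

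**Figure D1:**
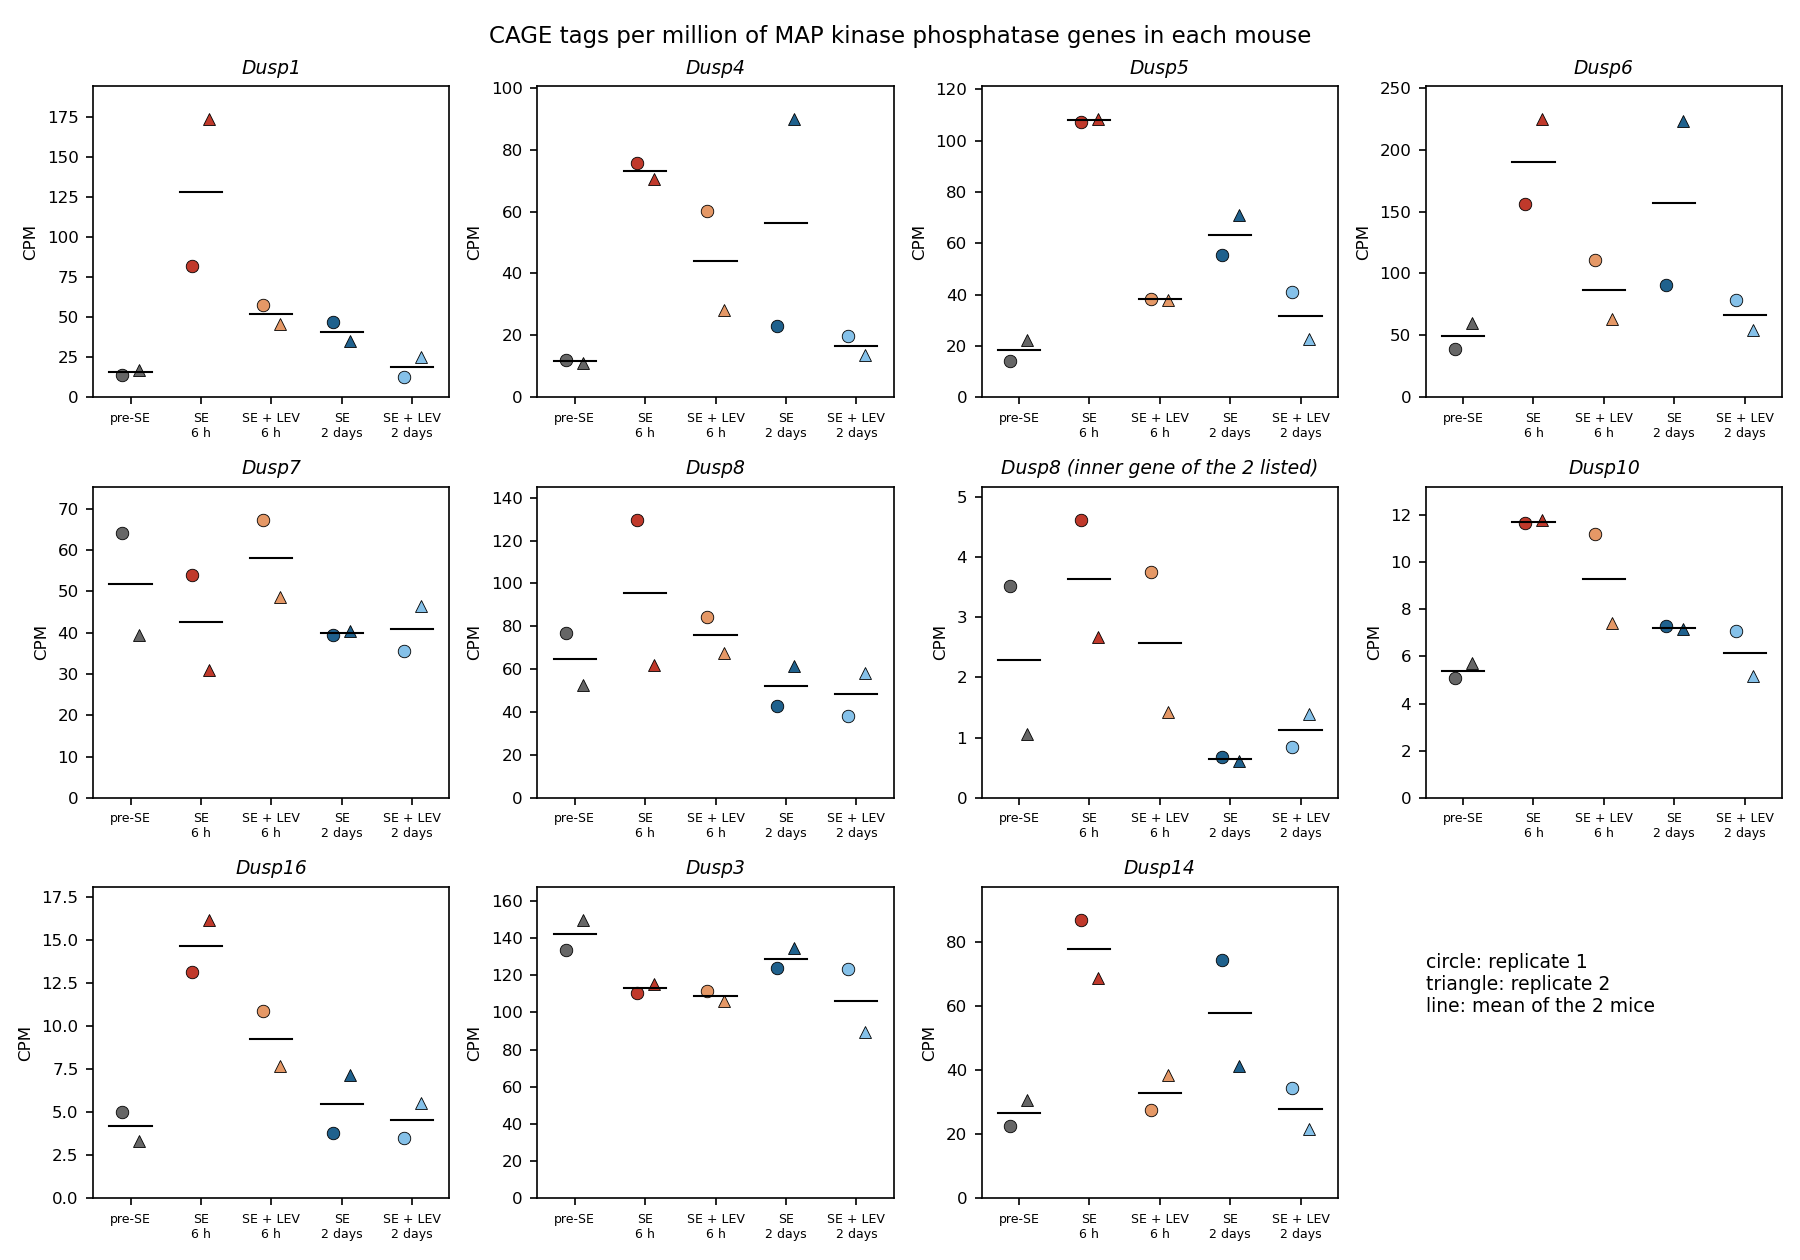
CPM (linear axis from 0, a separate scale for each gene) of the 11 lines in each mouse of the 5 groups, with circles and triangles for replicates 1 and 2 and a line at the mean. The SE 6 h mice lie above both pre-SE mice for Dusp1, Dusp4, Dusp5, Dusp6, Dusp10, Dusp14 and Dusp16, while SE 6 h and pre-SE mice overlap for Dusp7 and for both Dusp8 lines.

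Among the inducible nuclear enzymes, *Dusp1* (ENSMUSG00000024190, mm9 chr17:26642535-26645464, minus strand) encodes MKP-1, an immediate early phosphatase of p38, JNK and ERK. *Dusp1* measured 14.14 and 16.98 CPM before SE, 81.98 and 173.69 at SE 6 h, 57.55 and 46.11 at SE + LEV 6 h, 47.02 and 35.01 at SE 2 days and 12.55 and 24.97 at SE + LEV 2 days. Both SE 6 h mice were above all others, SE + LEV 6 h and SE 2 days mice overlapped in the middle, and SE + LEV 2 days mice overlapped pre-SE mice. The logFC of SE 6 h against pre-SE mice was 2.94 ± 0.40 (adjusted p = 0.0050), a fold of 7.66 with a 95% interval of 4.11 to 14.3. At 2 days the logFC was 1.38 ± 0.40 and did not pass (adjusted p = 0.080), although both SE mice were above both pre-SE mice.

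*Dusp4* (ENSMUSG00000031530, chr8:35870351-35882948, plus strand) encodes MKP-2, which acts on ERK, JNK and p38 in the nucleus. Its CPM was 11.97 and 11.18 before SE, 75.79 and 70.57 at SE 6 h, 60.11 and 28.18 at SE + LEV 6 h, 23.11 and 89.79 at SE 2 days and 19.82 and 13.51 at SE + LEV 2 days. The SE 2 days mice stood on either side of the SE 6 h mice, which differed little from each other, and pre-SE mice were below every other mouse. *Dusp4* rose at 6 h with a logFC of 2.65 ± 0.55 (adjusted p = 0.032), 6.28-fold with an interval of 2.68 to 14.7. The logFC at 2 days, 1.97 ± 0.55, did not pass (adjusted p = 0.069) and ranged from 0.99 without SE 2 days replicate 2 to 2.95 without replicate 1.

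*Dusp5* (ENSMUSG00000034765, chr19:53603599-53616921, plus strand) encodes a nuclear phosphatase selective for ERK. It measured 14.31 and 22.2 CPM before SE, 107.42 and 108.33 at SE 6 h, 38.48 and 37.85 at SE + LEV 6 h, 55.59 and 71.12 at SE 2 days and 40.92 and 22.59 at SE + LEV 2 days. The order was SE 6 h, SE 2 days, both SE + LEV groups, which overlapped each other, and pre-SE, with no overlap between these steps. *Dusp5* was the phosphatase that passed at both times, with a logFC of 2.59 ± 0.32 at 6 h (adjusted p = 0.0030, 6.02-fold, interval 3.70 to 9.81) and 1.81 ± 0.32 at 2 days (adjusted p = 0.0087, 3.51-fold, interval 2.16 to 5.72). The call at 2 days was lost without pre-SE replicate 1 and without SE 2 days replicate 2 (largest adjusted p = 0.10). As sums of the 3 nuclear genes, the CPM was 40.4 and 50.4 before SE, 265.2 and 352.6 at SE 6 h, 156.1 and 112.1 at SE + LEV 6 h, 125.7 and 195.9 at SE 2 days and 73.3 and 61.1 at SE + LEV 2 days.

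CAGE measures transcription starts, so the windows around the RefSeq start sites (250 bases before to 50 after, 300 bases, build GRCm38.p6, which is not the mm9 build of the expression table) were read for 9 of the 10 genes. *Dusp4* was not among them. Each gene was read at a single start, although the mm9 annotation lists, for example, 3 transcripts for *Dusp1* and 5 for *Dusp14*. Whether the tags counted here came from these starts was not examined. Shown are *Dusp1* and *Dusp5*, which kept their calls at 6 h under every alternative run, and *Dusp8*, which was not called but carries the same motif as *Dusp1*, on the strand of the gene from 5′ to 3′. Capitals mark the cAMP response element (CRE, TGACGTCA), the short CRE (TGACG on either strand, which overlaps the CRE) and the CArG box, the binding site of serum response factor.
Dusp1 (chr17:26508423-26508722, minus strand): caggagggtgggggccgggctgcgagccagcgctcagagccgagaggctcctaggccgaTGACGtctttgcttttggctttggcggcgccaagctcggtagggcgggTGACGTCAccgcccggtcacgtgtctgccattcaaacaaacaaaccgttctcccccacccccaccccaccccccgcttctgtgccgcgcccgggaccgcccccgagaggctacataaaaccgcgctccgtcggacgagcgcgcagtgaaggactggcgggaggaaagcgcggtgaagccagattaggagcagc
Dusp5 (chr19:53528895-53529194, plus strand): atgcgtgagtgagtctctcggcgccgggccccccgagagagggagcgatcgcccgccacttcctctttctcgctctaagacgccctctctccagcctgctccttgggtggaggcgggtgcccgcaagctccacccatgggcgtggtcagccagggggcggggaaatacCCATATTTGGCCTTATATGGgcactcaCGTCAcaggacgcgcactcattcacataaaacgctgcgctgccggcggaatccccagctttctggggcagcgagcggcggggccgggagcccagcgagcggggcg
Dusp8 (chr7:142095235-142095534, minus strand): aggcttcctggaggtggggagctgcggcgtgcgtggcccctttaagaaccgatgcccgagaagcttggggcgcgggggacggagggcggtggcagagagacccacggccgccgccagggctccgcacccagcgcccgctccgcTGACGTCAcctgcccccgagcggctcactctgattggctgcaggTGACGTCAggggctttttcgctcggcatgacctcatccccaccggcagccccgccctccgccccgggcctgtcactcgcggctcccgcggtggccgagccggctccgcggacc

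Searched on both strands, a full CRE was found from 143 to 136 bases before the start of *Dusp1* and at a pair of places before *Dusp8*, from 107 to 100 and from 63 to 56 bases. This motif occurs in 1.79% of 32851 RefSeq mouse promoters of the same length. *Dusp5* carried 2 CArG boxes side by side, from 82 to 73 and from 72 to 63 bases before its start, a motif in 1.63% of promoters. The short CRE was found in *Dusp1*, *Dusp5*, *Dusp8* and *Dusp16* against 20.8% of promoters, and an EGR site (GCGNGGGCG) was in *Dusp16* against 5.55%. An AP-1 site (TGANTCA, 7.81% of promoters), TATAAA (13.6%), the NF-kappaB site (8.46%) and CCGGAAG of ETS factors (8.86%) had no match in the 9 windows. *Dusp6* and *Dusp14*, both called at 6 h, had no match to the motifs searched, and *Dusp8*, with 2 CREs, was not called.

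**Figure D2:**
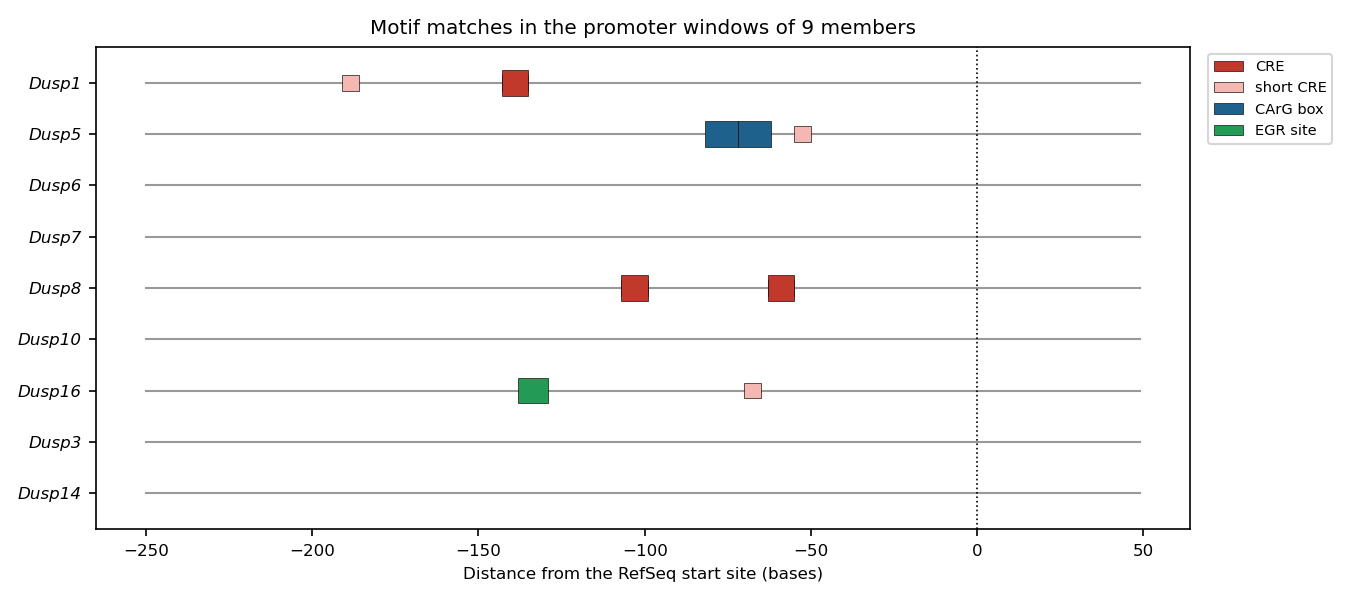
Positions of motif matches (coloured bars, width to scale) in the windows of 9 phosphatase genes, on an axis of bases from the RefSeq start site (dotted line). The CRE lies in the windows of Dusp1 and Dusp8, the pair of CArG boxes in Dusp5 and the EGR site in Dusp16, and 5 windows hold no match.

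Of the cytoplasmic enzymes, *Dusp6* (ENSMUSG00000019960, chr10:98725865-98730122, plus strand) encodes MKP-3, a feedback phosphatase of ERK that is transcribed in response to ERK activity. *Dusp6* measured 38.63 and 59.7 CPM before SE, 156.2 and 224.4 at SE 6 h, 110.64 and 63.18 at SE + LEV 6 h, 90.4 and 222.72 at SE 2 days and 78.64 and 54.67 at SE + LEV 2 days. As for *Dusp4*, SE 2 days replicate 2 was as high as the SE 6 h mice and replicate 1 was not, and SE + LEV 2 days mice overlapped pre-SE mice. The logFC was 1.96 ± 0.44 at 6 h (adjusted p = 0.045, 3.89-fold, interval 1.97 to 7.70) and 1.56 ± 0.44 at 2 days (adjusted p = 0.072), the latter being 0.91 without SE 2 days replicate 2 and 2.21 without replicate 1.

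*Dusp7* (ENSMUSG00000053716, chr9:106270963-106278055, plus strand) encodes the other cytoplasmic ERK phosphatase. Its CPM was 64.22 and 39.39 before SE, 53.98 and 31.04 at SE 6 h, 67.35 and 48.57 at SE + LEV 6 h, 39.56 and 40.31 at SE 2 days and 35.64 and 46.45 at SE + LEV 2 days. The pre-SE mice overlapped every other group. With a logFC of -0.30 ± 0.33 at 6 h, whose interval of -1.04 to 0.45 does not reach the estimate for *Dusp6*, no difference was detectable, and at 2 days the logFC was -0.33 ± 0.33 (adjusted p = 0.68 and 0.66).

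The enzymes that prefer JNK and p38 were mixed. *Dusp16* (ENSMUSG00000030203, chr6:134665488-134742643, minus strand), which encodes MKP-7, measured 5.04 and 3.33 CPM before SE, 13.15 and 16.17 at SE 6 h, 10.87 and 7.68 at SE + LEV 6 h, 3.82 and 7.16 at SE 2 days and 3.52 and 5.54 at SE + LEV 2 days. SE 6 h mice were highest and SE + LEV 6 h mice came next without overlap, whereas pre-SE mice and both groups at 2 days overlapped. It rose at 6 h with a logFC of 1.81 ± 0.41 (adjusted p = 0.046, 3.50-fold, interval 1.86 to 6.59), and at 2 days the logFC was 0.35 ± 0.41 (adjusted p = 0.71).

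*Dusp10* (ENSMUSG00000039384, chr1:185837181-185899515, plus strand) encodes MKP-5. The gene 1700056E22Rik lies within it on the other strand and has no line of its own in the table, so its tags could not be told apart if strand was not used in the counting, which the sources used here do not state. *Dusp10* measured 5.07 and 5.7 CPM before SE, 11.67 and 11.79 at SE 6 h, 11.2 and 7.4 at SE + LEV 6 h, 7.29 and 7.16 at SE 2 days and 7.09 and 5.18 at SE + LEV 2 days. Both SE groups lay above both pre-SE mice, but neither logFC, 1.11 ± 0.32 at 6 h (adjusted p = 0.11) and 0.42 ± 0.32 at 2 days (adjusted p = 0.53), passed.

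*Dusp8* (ENSMUSG00000037887, chr7:149265395-149281748, minus strand) encodes a JNK and p38 phosphatase known from brain. It measured 76.91 and 52.66 CPM before SE, 129.64 and 61.8 at SE 6 h, 84.49 and 67.55 at SE + LEV 6 h, 43.04 and 61.37 at SE 2 days and 38.27 and 58.12 at SE + LEV 2 days. A single SE 6 h mouse stood above the rest. Both SE groups overlapped the pre-SE mice, while mice at 2 days lay below those at 6 h both without and with LEV, with a logFC against pre-SE mice of 0.49 ± 0.38 at 6 h (adjusted p = 0.53) and -0.31 ± 0.38 at 2 days (adjusted p = 0.72). Without SE 6 h replicate 1 the logFC at 6 h was -0.04.

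The second *Dusp8* identifier (ENSMUSG00000043186, chr7:149265407-149266592) is a gene of a single exon of 1186 bases inside an exon of the first (149265395 to 149268935) on the same strand, so the pair cannot be taken as independent genes. It was low, with 3.52 and 1.06 CPM before SE, 4.62 and 2.67 at SE 6 h, 3.75 and 1.42 at SE + LEV 6 h, 0.68 and 0.62 at SE 2 days and 0.85 and 1.4 at SE + LEV 2 days. The 4 mice at 2 days did not exceed 1.4 CPM, and both SE mice at 2 days were below both pre-SE mice, with a logFC of -1.45 ± 0.62 that did not pass (adjusted p = 0.23).

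The atypical enzymes differed from each other. *Dusp14* (ENSMUSG00000018648, chr11:83861543-83882763, minus strand) encodes MKP6, and measured 22.59 and 30.71 CPM before SE, 86.66 and 68.66 at SE 6 h, 27.45 and 38.42 at SE + LEV 6 h, 74.28 and 41.36 at SE 2 days and 34.25 and 21.56 at SE + LEV 2 days. Both SE groups were above all LEV and pre-SE mice, which overlapped each other. The logFC was 1.55 ± 0.35 at 6 h (adjusted p = 0.046, 2.92-fold, interval 1.70 to 5.01) and 1.07 ± 0.35 at 2 days (adjusted p = 0.12).

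*Dusp3* (ENSMUSG00000003518, chr11:101832457-101848327, minus strand), which encodes VHR, had the highest CPM of the 10 genes before SE, with 133.57 and 149.54 in pre-SE mice. It measured 110.72 and 115.18 at SE 6 h, 111.64 and 106.16 at SE + LEV 6 h, 123.76 and 134.69 at SE 2 days and 123.47 and 89.29 at SE + LEV 2 days. SE 6 h mice were below both pre-SE mice, yet the logFC of -0.32 ± 0.22 (adjusted p = 0.46) did not pass, and that at 2 days was -0.13 ± 0.22 (adjusted p = 0.80).

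At 6 h after SE, 6 of 11 lines were called higher and 0 lower, where 2.76% of all genes tested were called higher and 0.202% lower. In 7 of 11 lines both SE values exceeded both pre-SE values, and in 1 they fell short of them, against 18.6% and 31.3% of all genes. The median logFC of the 11 lines was 1.55, beside -0.13 for all genes tested, and scaling by the median of ratios brought the latter to -0.005 and the former to 1.67. The count fell to 2, *Dusp1* and *Dusp5*, without either pre-SE mouse or without either SE 6 h mouse, and to 3 without either SE + LEV 6 h mouse or with a pseudocount of 1.

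At 2 days, 1 of 11 lines was called higher and 0 lower, where 5.07% of all genes were called higher and 0.593% lower. In 6 lines both SE values exceeded both pre-SE values, and in 1 they fell short of them, against 26.3% and 25.6% of all genes, and the median logFC was 0.42 beside -0.03. The count depended on single mice: it was 3 (*Dusp4*, *Dusp5*, *Dusp6*) without SE 2 days replicate 1 and 0 without replicate 2 of that group or replicate 1 of the pre-SE group, and it was 2 without either SE + LEV 2 days mouse.

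The change between the times was tested directly by comparing SE 2 days with SE 6 h mice, in which 0 lines were called with limma, although 4 had an unadjusted p under 0.05, all lower at 2 days, as were 7.29% of all genes at that level. Of all genes tested, 3.14% were called higher and 1.11% lower. The estimates were lower at 2 days in 10 of 11 lines, against 44.3% of all genes, with a median of -0.69 beside 0.09 for all genes, and led by the inner *Dusp8* line with -2.27 ± 0.62 (adjusted p = 0.075), *Dusp1* with -1.55 ± 0.40 (adjusted p = 0.063) and *Dusp16* with -1.46 ± 0.41 (adjusted p = 0.081). For *Dusp5* the logFC was -0.78 ± 0.32 (adjusted p = 0.21), and for *Dusp4* and *Dusp6* it was -0.68 ± 0.55 and -0.40 ± 0.44 and turned positive without SE 2 days replicate 1. Without either SE + LEV 2 days mouse 1 line, *Dusp1*, was called.

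**Figure D3:**
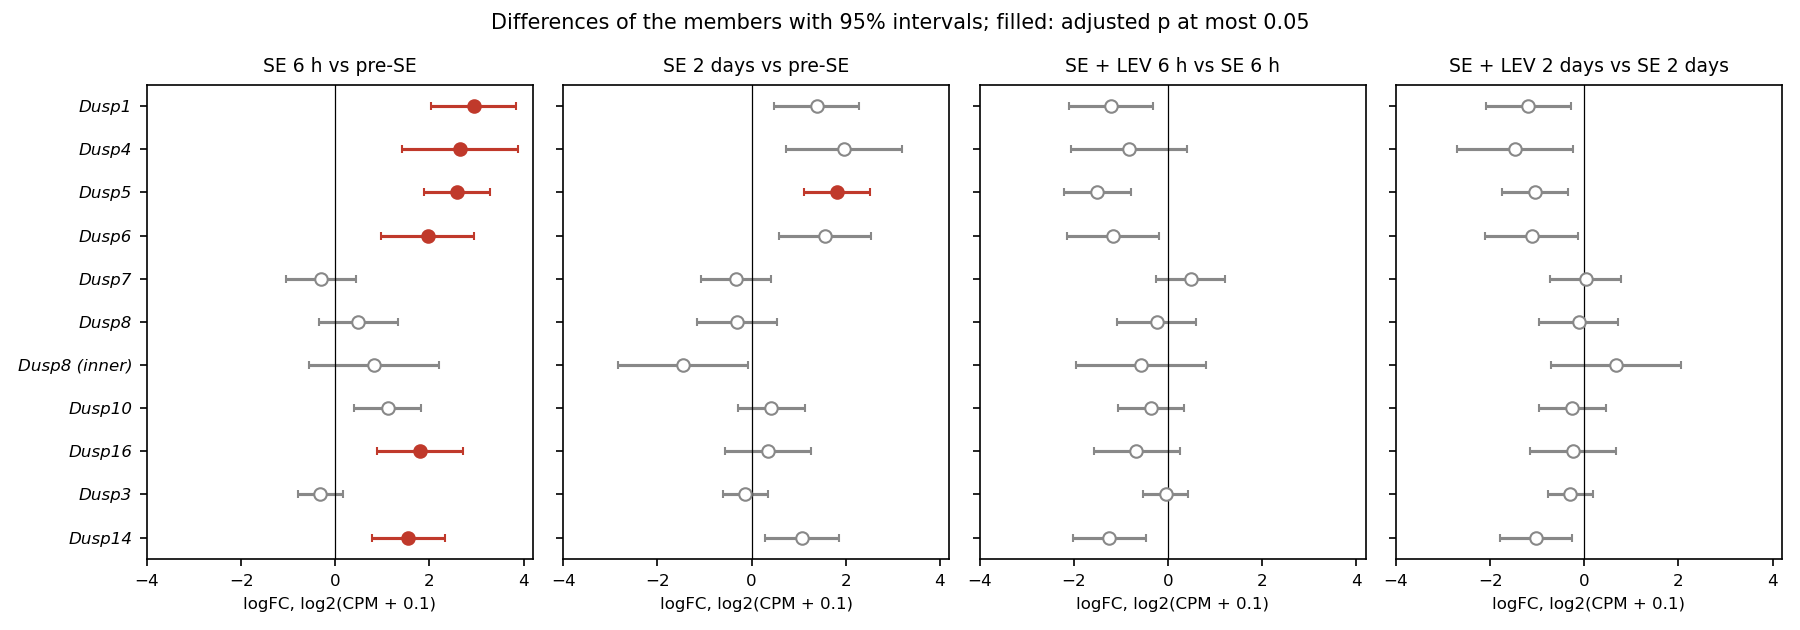
The logFC of each line with its 95% interval from limma in 4 comparisons, filled red where the adjusted p was at most 0.05. Filled points are 6 at SE 6 h and 1 at SE 2 days against pre-SE, and none for SE + LEV against SE at either time, where points for Dusp1, Dusp4, Dusp5, Dusp6 and Dusp14 lie to the left of 0.

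Whether LEV altered the expression of the phosphatases was examined against SE mice of the same time. At 6 h, 0 of 11 lines were called with limma in either direction, where 0% of all genes were called higher and 0.0126% (2 genes) lower. *Dusp5* came closest, with a logFC of -1.50 ± 0.32 (unadjusted p = 0.00078, adjusted p = 0.25), a fold of 0.354 with an interval of 0.217 to 0.577. The adjusted p was between 0.12 and 1 and the logFC between -1.55 and -1.48 in the alternatives. *Dusp14* followed with -1.25 ± 0.35 (adjusted p = 0.63), *Dusp1* with -1.21 ± 0.40 (adjusted p = 0.83) and *Dusp6* with -1.16 ± 0.44 (adjusted p = 0.96), which are the 4 lines with an unadjusted p under 0.05, beside 3.42% of all genes lower at that level.

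The logFC was -0.83 ± 0.55 for *Dusp4* and -0.67 ± 0.41 for *Dusp16*, and for *Dusp10*, the outer and the inner *Dusp8* and *Dusp3* it was -0.36, -0.24, -0.58 and -0.05. *Dusp7* was the exception in sign, at 0.48 ± 0.33. Both SE + LEV 6 h mice were below both SE 6 h mice in 7 of 11 lines, against 13.4% of all genes, estimates were lower in 10 of 11 against 44.2%, and the median was -0.67 beside 0.04.

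At 2 days, 0 of 11 lines and 0% of all genes were called in either direction with limma, and all adjusted p of the phosphatases were 1. An unadjusted p under 0.05 was reached by 5 lines, all lower, beside 1.39% of all genes: *Dusp4* with a logFC of -1.47 ± 0.55, *Dusp1* with -1.19 ± 0.40, *Dusp6* with -1.11 ± 0.44, *Dusp5* with -1.05 ± 0.32 and *Dusp14* with -1.03 ± 0.35. In each of the 5 both values with LEV lay below both values without it. Without SE 2 days replicate 2 the value for *Dusp4* was -0.50 and that for *Dusp6* -0.46, and without replicate 1 they were -2.45 and -1.76. The other lines lay between -0.30 (*Dusp3*) and 0.67 (inner *Dusp8*). Both LEV mice were below both SE mice in 7 of 11 lines, against 12.2% of all genes, estimates were lower in 9 of 11 against 44.6%, and the median was -0.30 beside 0.04.

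The difference between the LEV effects at 2 days and 6 h was called in 0 lines and in 0% of all genes with limma, and 0 lines had an unadjusted p under 0.05 (1.58% of all genes higher and 0.795% lower). The interval of this difference for *Dusp5* was -0.55 to 1.45 on the log2 scale, which leaves room for effects of unlike size at the times.

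Against pre-SE mice, SE + LEV 6 h mice had 0 of 11 lines called with limma, where 0.315% of all genes were called higher and 0.00631% lower, and 5 lines had an unadjusted p under 0.05, all higher (5.53% of all genes). The logFC was 1.82 ± 0.55 for *Dusp4* (adjusted p = 0.28), 1.73 ± 0.40 for *Dusp1* (adjusted p = 0.15), 1.14 ± 0.41 for *Dusp16* (adjusted p = 0.39), 1.09 ± 0.32 for *Dusp5* (adjusted p = 0.25) and 0.75 ± 0.32 for *Dusp10* (adjusted p = 0.49). *Dusp6* had 0.80 ± 0.44 and *Dusp14* 0.30 ± 0.35. Set beside the same pre-SE mice without LEV, where the values were 2.65, 2.94, 1.81, 2.59, 1.11, 1.96 and 1.55 in this order of genes, each estimate was smaller, and the test of that difference is the comparison of SE + LEV with SE mice above, since both share the pre-SE mice. In SE + LEV 2 days mice 0 of 11 lines were called against pre-SE mice (2.83% of all genes higher, 0.0189% lower), the median was 0.11, and the line with an unadjusted p under 0.05 (8.86% of all genes were higher at that level) was *Dusp5*, with a logFC of 0.77 ± 0.32 (adjusted p = 0.39).

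Between SE + LEV 6 h and SE + LEV 2 days mice, 0 lines were called with limma (2.06% of all genes higher, 0.0757% lower at 2 days). All 11 estimates were lower at 2 days, against 42.3% of all genes, with a median of -0.58 beside 0.09. An unadjusted p under 0.05 was reached by 3 of them, against 2.7% of all genes, and *Dusp1* led with -1.54 ± 0.40 (adjusted p = 0.11). Without SE + LEV 2 days replicate 2, 1 line, *Dusp1*, was called.

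Other genes of the pathway were taken from lists chosen by function, and are described by counts, to be read beside the 2.76% (6 h) and 5.07% (2 days) of all genes called higher after SE and the medians of -0.13 and -0.03 over all genes. Of the MAP kinases themselves 8 of 10 were in the table, and 0 of 8 were called at 6 h or 2 days after SE, with medians of -0.18 and -0.16. The MAP kinase kinases, RAF and RAS genes, which relay signals to them, had 0 of 13 called at either time, with medians of -0.16 and -0.20, and 1 called at 2 days without SE 2 days replicate 1 or without either SE + LEV 2 days mouse. Other dual-specificity and kinase-interaction-motif phosphatases, such as *Dusp2* and *Ptpn5*, had 13 of 15 in the table and 0 of 13 called, with medians of -0.28 and 0.11.

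Further inhibitors of RAS-ERK signalling, the Sprouty and Spred proteins, *Errfi1*, *Rasa1* and *Nf1*, had 9 of 10 in the table. The medians were 0.73 at 6 h and 0.59 at 2 days. At 6 h 2 of 9 were called higher: *Errfi1*, an inhibitor of the EGF receptor, rose from 77.87 and 88.86 CPM to 717.65 and 766.31 (logFC 3.15 ± 0.44, adjusted p = 0.0054), and *Spry2* rose from 71.04 and 38.77 to 386.36 and 262.08 CPM (logFC 2.60 ± 0.44, adjusted p = 0.012). Both calls were lost without SE 6 h replicate 2, and that of *Spry2* also without SE 6 h replicate 1 or pre-SE replicate 2. At 2 days 0 of 9 were called, and *Errfi1* was lower at 2 days than at 6 h after SE (logFC -1.93 ± 0.44, adjusted p = 0.039), a call lost with replicate number as a block and without any pre-SE or SE 6 h mouse or SE 2 days replicate 1.

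Transcripts known to depend on ERK, all 12 in the table, had 4 called higher at each time, with medians of 1.85 and 2.17. In 8 of the 12 at 6 h and 9 at 2 days, both SE values exceeded both pre-SE values. Both SE values fell short of both pre-SE values for *Etv1* and *Etv4* at 6 h and for *Etv1* and *Epha4* at 2 days. None of these lower differences was called. *Fos*, an AP-1 subunit, rose from 4 and 9.98 CPM to 276.28 and 227.69 at 6 h (logFC 5.29 ± 0.56, adjusted p = 0.0023) and was 72.88 and 85.64 at 2 days (logFC 3.62 ± 0.56, adjusted p = 0.0050). *Myc*, a growth-related transcription factor, had logFC of 3.82 ± 0.43 and 3.40 ± 0.43 at these times, *Ier2* 3.10 ± 0.35 and 2.56 ± 0.35 and *Ier3* 2.57 ± 0.37 and 3.04 ± 0.37, the last pair being immediate early genes. With LEV the logFC against SE mice was -2.04 ± 0.56 for *Fos*, -1.22 ± 0.35 for *Ier2*, -0.68 ± 0.37 for *Ier3* and -1.34 ± 0.44 for *Errfi1* at 6 h and -2.06 ± 0.56, -1.66 ± 0.35, -1.46 ± 0.37 and -0.90 ± 0.44 at 2 days, none of them called. For *Myc* it was 0.08 ± 0.43 at 6 h and -0.50 ± 0.43 at 2 days and for *Spry2* -0.58 ± 0.44 and -0.38 ± 0.44, also not called. Without SE 6 h replicate 2 the call of *Ier3* at 6 h was lost, and without SE 2 days replicate 2 that of *Fos* at 2 days. The logFC of *Fos* ran from 4.64 to 5.94 at 6 h and from 2.97 to 4.27 at 2 days, the ends being the values without either pre-SE mouse.

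**Figure D4:**
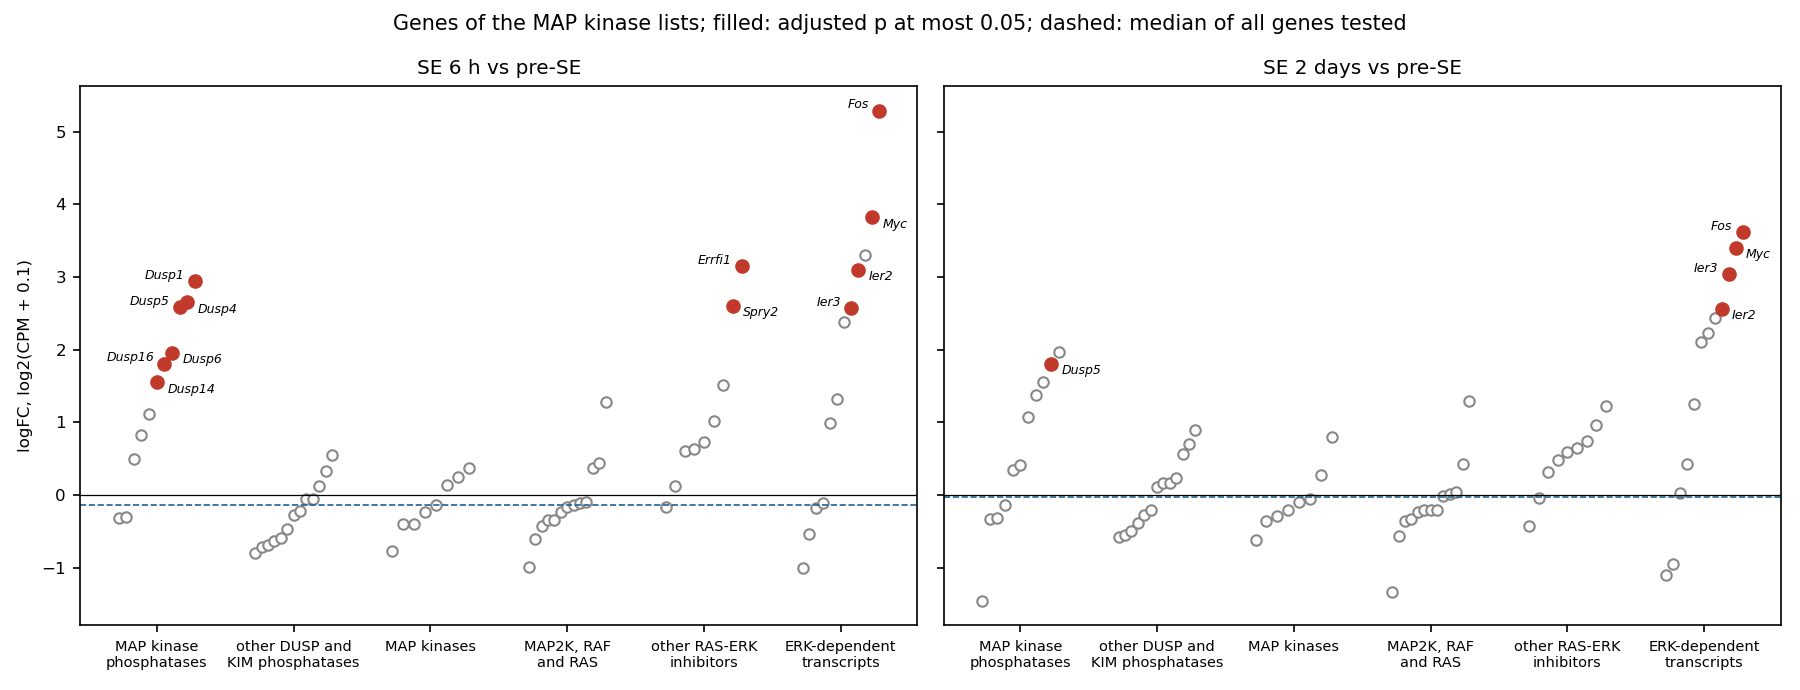
The logFC of each gene in 6 lists (points ordered by size within a list) in SE 6 h and SE 2 days mice against pre-SE mice, filled red and named where called by limma, with the median of all genes tested as a dashed line. Called genes are found among the MAP kinase phosphatases, the other RAS-ERK inhibitors and the ERK-dependent transcripts, while the MAP kinases, the MAP2K, RAF and RAS genes and the other phosphatases hold none.

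Across the 10 libraries, the highest Pearson r of log2(CPM + 0.1) values among the phosphatases was 0.92. It was reached by *Dusp4* and *Dusp6* and by *Dusp5* and *Dusp6*, while *Dusp4* and *Dusp5* had r = 0.86. *Dusp5* and *Dusp14* had r = 0.87, *Dusp1* and *Dusp16* 0.86, and *Dusp3* stayed between -0.41 and 0.04 with the other lines. These values describe 10 libraries that share the same 5 groups. Among 14220 genes with a mean of at least 1 CPM, the patterns most like each called phosphatase were *Rheb*, *Bdnf* and *Jun* for *Dusp4* (r = 0.993, 0.987 and 0.976), *Peg10*, *Pvr* and *Nfil3* for *Dusp5* (0.986, 0.964 and 0.961), and *Cstf3*, *Arl4d* and *Rpl17* for *Dusp1* (0.962, 0.96 and 0.949). They were *Wdr96*, *Itprip* and AC126679.1 for *Dusp6* (each 0.978), *Rbm15*, *Tbc1d1* and *Gpr19* for *Dusp16* (each 0.976) and *Adar*, *Btg2* and *Llph* for *Dusp14* (0.92, 0.912 and 0.896).

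Whole hippocampus holds many cell types, and fewer cells of a type and less RNA per cell cannot be told apart in these libraries. Markers of neurons (4 of 5 in the table, *Snap25* at 1296.91 CPM or more), dentate granule cells (*Prox1*) and pyramidal cells were present in every mouse. The sum of the neuron markers was 4638.2 to 4962 CPM before SE, 3385.9 to 4653.1 at SE 6 h and 2910.2 to 3598.2 at SE 2 days, and *Prox1* was 56.1 to 59.1, 83.9 to 91.3 and 39.4 to 64.3. Beside the phosphatases, the summed level of 5 microglia markers was 147.9 to 156 CPM before SE, 68.6 to 79.1 at SE 6 h and 273.8 to 288.8 at SE 2 days, and that of 4 endothelial markers was 54.2 to 59.9, 107.5 to 168.7 and 92.7 to 107.4. The sum of 5 astrocyte markers was 2132.1 to 2200.9, 1950 to 2405.1 and 3425.4 to 4820.9 CPM, that of 4 blood leukocyte markers 6.5 to 7.7, 10.1 to 15.4 and 48.1 to 84.5, and that of 4 oligodendrocyte markers 4152 to 4744.9, 2886.1 to 5670.2 and 1530 to 2306.7. Against pre-SE mice, 2 of 5 astrocyte markers, *Gfap* and *Aqp4*, were called higher at SE 2 days (5.07% of all genes). So were 1 of 5 microglia markers, *Aif1*, and 3 of 4 leukocyte markers, *Ms4a7*, *Ptprc* and *Lyz2*. Called lower at that time (0.593% of all genes) were *Fibcd1*, 1 of 3 pyramidal cell markers, and *Hbb-b1* of red blood cells. At SE 6 h *Cdh5*, 1 of 4 endothelial markers, was called higher (2.76%). The microglia markers *P2ry12* and *Tmem119*, 2 of 5, were called lower at 6 h (0.202%). Over all mice *Gfap* ran from 230.22 to 3642.11 CPM and *Slc1a2* from 786.25 to 1546.8. Choroid plexus markers (2 of 3 in the table) varied within groups, from 12 to 1689.8 CPM before SE and from 8 to 3959.3 at SE 6 h, and the red blood cell marker *Hbb-b1* was 17.1 to 18.7 CPM before SE, 6.5 to 10.3 at SE 6 h and 3.1 to 5.8 at SE 2 days. With LEV, the microglia sum was 95.4 to 119.6 at 6 h and 339.6 to 346.7 at 2 days and that of oligodendrocytes 2729 to 4004.8 at 2 days, each above the SE mice of the same time. The *Hbb-b1* level with LEV, 3.3 to 5.5 at 6 h and 2.1 to 2.5 at 2 days, was below them, and the neuron sums with LEV, 3603.5 to 4508.9 and 2970.7 to 2978.5, overlapped them, as did those of endothelial cells, astrocytes and leukocytes at both times and of oligodendrocytes at 6 h. The sum of pyramidal cell markers was 266.8 to 318 CPM before SE. With LEV at 6 h it was 264.2 to 286.6, above SE mice (224.4 to 234.5), and it overlapped them at 2 days. The sum of interneuron markers was 286.2 to 343 before SE. With LEV at 2 days it was 225.9 to 232.6, below SE mice (245.6 to 372.4), and it overlapped them at 6 h. The part of these cell types in the differences of the phosphatases was not tested.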

How the data were processed

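CAGE libraries were made from total RNA of whole hippocampi of 10 mice. Per the labels and the methods, the authors mapped tags to mm9 with BWA 0.7.17 and the unmapped ones with HISAT2 2.0.5, clustered them with RECLU, and discarded clusters under 0.1 CPM. The processing notes also name bedtools 2.12.0 and edgeR 3.22.5. The authors deposited CPM values, scaled to an equal total over the listed genes of each library and rounded. How clusters were summed to genes, and with which use of strand, is not given in the sources used here. All 10 columns were used, and 0 columns of values were left out.

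Library totals (10540698 to 51710968 tags) were estimated from the steps of the CPM values (at least 99.92% of values within rounding) and checked on simulated data. They cover counting only.

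limma 3.58.1 in R 4.3.3 was run on log2(CPM + 0.1) with 5 group means, a mean-variance trend and two-sided tests, for 15851 genes that reached 0.1 CPM in 2 or more libraries, with Benjamini-Hochberg adjustment and calls at 0.05. A logFC on this scale understates changes of low genes. The script was tested on simulated data. Alternatives were pseudocounts of 0.5 and 1, no filter and a filter of 1 CPM, rescaling by the median of ratios, a block for the replicate number, a fit of only the groups compared, and each mouse left out. A block with crossed numbers was added after seeing the data.

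The phosphatases and the gene lists were chosen with earlier results of these data known, and the motifs after the data were available. TGACGT was also searched and left out, since it lies between the CRE and the short CRE. Named are all 10 phosphatases, called genes of the lists (at most 4 per list and comparison), the 3 genes most like each phosphatase called against pre-SE mice, and overlapping genes. Also named are genes that show what a list holds, and ERK-dependent transcripts with both SE values below both pre-SE values. Positions come from GENCODE vM1 on NCBIM37 (mm9), and promoters from RefSeq on GRCm38.p6, matched by symbol. Python 3.11.15, numpy 2.4.6, pandas 2.3.3 and matplotlib 3.10.9 were used.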

Additional observations from a re-analysis of the deposited data

How the results depend on the processing

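The count of phosphatases called at SE 6 h against pre-SE mice was 6. It was 3 with a pseudocount of 1 and 2 with replicate number as a block (*Dusp1*, *Dusp5*), and 2 to 6 when a mouse was left out. *Dusp1* and *Dusp5* were called in 17 of 17 alternatives, *Dusp4* in 12, *Dusp16* in 9, and *Dusp6* and *Dusp14* in 8 each. At SE 2 days against pre-SE mice the count was 1, 2 with a fit of only the groups compared, and 0 to 3 when a mouse was left out. For SE 2 days against SE 6 h mice it was 0, 1 with median-of-ratios rescaling (*Dusp1*), 1 with a fit of only the groups compared (the inner *Dusp8* line), and 0 to 1 when a mouse was left out, and for SE + LEV 2 days against SE + LEV 6 h mice it was 0 and 0 to 1. In the other comparisons 0 were called in every alternative run. Of the ERK-dependent transcripts, 4 at each time, 3 to 6 were called at 6 h and 3 to 7 at 2 days in the alternatives, of the other inhibitors 0 to 2 at 6 h, and of the MAP kinase kinases, RAF and RAS genes 0 to 1 at 2 days. The cause of these shifts was not tested.

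Of 1705 estimates of the phosphatases under an alternative, 52 changed sign, 51 of them on leaving out a mouse, and 0 of these were called before. Of 119 called estimates 34 lost the call, and 10 uncalled ones gained it. The estimates quoted above that changed sign on leaving out a mouse ranged, for *Dusp7*, from -0.69 to 0.10 at SE 6 h and from -0.68 to 0.02 at SE 2 days against pre-SE mice, from -0.16 to 0.22 for SE + LEV 2 days against SE 2 days and from -0.43 to 0.36 for SE 2 days against SE 6 h mice. For *Dusp8* they ranged from -0.04 to 1.03 at SE 6 h against pre-SE mice, from -0.78 to 0.29 with LEV at 6 h and from -0.42 to 0.18 with LEV at 2 days, and for its inner line from -1.25 to 0.09 with LEV at 6 h. For *Dusp16* they ranged from -0.10 to 0.79 at SE 2 days against pre-SE mice and from -0.68 to 0.20 with LEV at 2 days, and between SE 2 days and SE 6 h mice from -1.66 to 0.30 for *Dusp4* and from -1.05 to 0.25 for *Dusp6*. With median-of-ratios rescaling *Dusp7* with LEV at 2 days was -0.02. On leaving out a mouse, *Myc* with LEV at 6 h ranged from -0.43 to 0.59 and *Spry2* with LEV at 2 days from -0.94 to 0.19.

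Mice with the same replicate number are different animals, and the labels do not pair them. Deviations of same-numbered mice had correlations across genes of -0.44 to 0.34, the highest being that of SE 6 h and pre-SE mice. The block is given only as an alternative and is not part of the main model. With numbers crossed in SE + LEV 2 days the block called 0 phosphatases in that group against SE 2 days or pre-SE mice, the 2 comparisons it was run for. The planned edgeR and DESeq2 tests were not run, because for most libraries whole tags were not recovered to the precision a count test needs.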
